A study of Homo sapiens with 12 samples.

Results

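The genes described here fold, modify, export and degrade proteins in the endoplasmic reticulum (ER). They are 34 genes of the XBP1 and ATF6 arms of the unfolded protein response, picked by symbol from the 63568 genes of the deposited table, by a rule that sets no limit on any measured value. All 34 had a row in the table and all 34 passed the filter on low values. By role they comprised 4 sensors and transcription factors, 9 chaperones and cochaperones, 2 lectin chaperones, 5 disulphide and prolyl isomerases, 4 genes of the translocon and of export, and 10 genes of ER-associated degradation (ERAD).

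RNA-seq was performed on LNCaP cells, an androgen-responsive line from a lymph node metastasis of prostate cancer. Cells received a non-targeting siRNA pool (si-NT) or either of 2 siRNAs against SMARCA4, the gene of the chromatin remodelling ATPase BRG1, and were collected at 72 h or, after a re-split and a further transfection, at 144 h. There were 2 si-NT libraries and 4 BRG1 depleted libraries, 2 per siRNA, at each time point, which makes 12 libraries of 1 cell line. The labels call the libraries replicates and do not say that they came from separate cultures, so p-values measure the spread between these libraries, which may be technical. The deposited table numbers the siRNAs 2 and 3 where the sample titles number them 1 and 2, and those of the table are used here. The title and the treatment label of 1 library at 72 h give different siRNAs, which does not touch the BRG1 depleted group as a whole.

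Proteins that enter the secretory pathway cross into the ER through the SEC61 channel, are bound by chaperones such as BiP, receive N-glycans and disulphide bonds, and leave in COPII vesicles once folded. Proteins that fail to fold are handed to the ERAD machinery, drawn back through the membrane and degraded by the proteasome. When unfolded protein accumulates, 3 sensors respond. IRE1 (gene ERN1) splices XBP1 mRNA into the form that encodes an active transcription factor, ATF6 is cut in the Golgi and enters the nucleus, and PERK slows translation. The luminal epithelium of the prostate is secretory, so this machinery serves its normal work.

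XBP1, ATF6 and their partner NF-Y are known to act through the ER stress element, which reads CCAAT, 9 bases of any kind, and CCACG. The 250 bases upstream of the annotated gene start were searched for it on both strands in a set of RefSeq promoters of assembly GRCh38.p14. The set is not claimed to hold every promoter of the assembly. It held a promoter for 30 of the 34 genes, the 4 without being DERL1, DERL3, PDIA3 and SEC24D. Those 4 were not searched, so nothing is said about the element in them. The element was present in 6 of the 30 promoters (20.0%), against 14 of the 10480 promoters of genes tested here (0.134%) and 22 of all 27305 promoters searched (0.0806%). The shorter UPR element TGACGTGG was present in 1 of the 30 (3.33%), that of HYOU1, against 0.763% of the promoters of genes tested and 0.667% of all promoters searched. These genes were listed because they are known to belong to the response, so the share describes the list, and a match is not evidence that a factor bound there in LNCaP cells. The stretches below are shown because these genes include the most abundant chaperones of the list and XBP1 itself. Each holds the element with 15 bases on either side, reads 5′ to 3′ on the strand of the gene, and has the fixed bases of the element in capitals.
HSPA5, chr9:125241376-125241424, minus strand: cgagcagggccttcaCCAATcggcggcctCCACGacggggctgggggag
HSP90B1, chr12:103930201-103930249, plus strand: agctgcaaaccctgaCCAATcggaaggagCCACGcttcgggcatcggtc
HSP90B1, chr12:103930306-103930354, plus strand: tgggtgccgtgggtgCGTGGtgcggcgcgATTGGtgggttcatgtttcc
CALR, chr19:12938369-12938417, plus strand: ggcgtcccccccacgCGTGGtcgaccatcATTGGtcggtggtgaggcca
CANX, chr5:179698763-179698811, plus strand: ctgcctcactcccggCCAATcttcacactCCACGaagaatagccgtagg
XBP1, chr22:28800588-28800636, minus strand: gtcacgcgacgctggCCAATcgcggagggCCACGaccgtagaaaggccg

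In CALR and in the second stretch of HSP90B1 the element lies on the opposite strand, so the printed letters are its reverse complement. HSP90B1 was the one gene with 2 copies. CRELD2, whose stretch is not printed, was the 6th gene with the element.

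In si-NT cells at 72 h SMARCA4 itself was at 97.0 and 73.4 TPM, and it was at 17.5 to 21.7 TPM in the 4 BRG1 depleted libraries (log2 fold change -2.07, SE 0.162, adjusted p = 0.000538 by limma). At 144 h it was at 94.5 and 106.6 TPM against 11.4 to 17.4 TPM (log2 fold change -2.66, SE 0.162, adjusted p = 1.01e-05 by limma). The 6 luminal markers examined (KRT8, KRT18, FOXA1, KLK2, FOLH1 and HOXB13) were present in every library, with a summed level of 1724 to 1948 TPM in si-NT and 1451 to 1941 TPM in BRG1 depleted cells at 72 h, and of 1542 to 1785 and 1589 to 1753 TPM at 144 h. Within that list KRT8 averaged 305.7 against 360.9 TPM at 72 h and 305.2 against 452.2 TPM at 144 h, and KLK2 336.1 against 131.7 TPM and 242.2 against 99.4 TPM. In bulk RNA such as this, fewer cells of a type and less RNA per cell cannot be told apart. The 5 stromal markers summed to 3.13 to 9.15 TPM, nearly all of it COL1A1 at 3.10 to 9.11 TPM, whose group means were 7.52 and 5.62 TPM in si-NT and BRG1 depleted cells at 72 h and 6.30 and 4.88 TPM at 144 h, while COL1A2 was listed at 0. The 4 leukocyte markers summed to at most 0.55 TPM. The part of these differences in the results was not tested. Read depth cannot be recovered from TPM and is unknown here, and the spread between libraries is the sole measure of precision. From 14706 to 15355 genes per library were at 1 TPM or more.

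One control library stood apart for the ER genes. Their summed level was 6461 TPM in si-NT replicate 2 at 72 h and lay between 4360 and 4968 TPM in the other 11 libraries. That library held the highest value of the 12 for 23 of the 34 genes, including all 9 chaperones and cochaperones, against 9.09% of all genes tested. On the log2(TPM + 1) scale, 11 of the 34 genes were at least 1.5 times as high in it as in si-NT replicate 1 at 72 h, against 5.64% of all genes tested. Between the 2 si-NT libraries at 144 h, 0 of the 34 genes passed the same limit, against 1.89% of all genes.

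HERPUD1, a membrane protein of the ERAD complex that is induced by ER stress, differed most between the 2 control libraries at 72 h, with 73.6 TPM in replicate 1 and 245 TPM in replicate 2, a ratio of 3.33. DNAJB9, a cochaperone of BiP, stood at a ratio of 2.67. HSPA5, which encodes BiP, stood at 2.53. The ERAD ubiquitin ligase SYVN1 and its partner SEL1L stood at 2.21 and 2.19, the chaperone HYOU1 at 2.15 and the cochaperone DNAJC3 at 1.84. XBP1 stood at 1.30, and DERL1 was lower in replicate 2. The 10 genes of the PERK arm, a list that is not part of the 34, showed the same library apart, with 8 of 10 at their highest there and 5 of 10 at least 1.5 times above replicate 1. DDIT3, which encodes the stress factor CHOP, was at 84.6 TPM in replicate 1 and at 292 TPM in replicate 2. The median log2 ratio of replicate 2 to replicate 1 was 0.406 over the 34 genes and 0.015 over all genes tested.

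**Figure D1:**
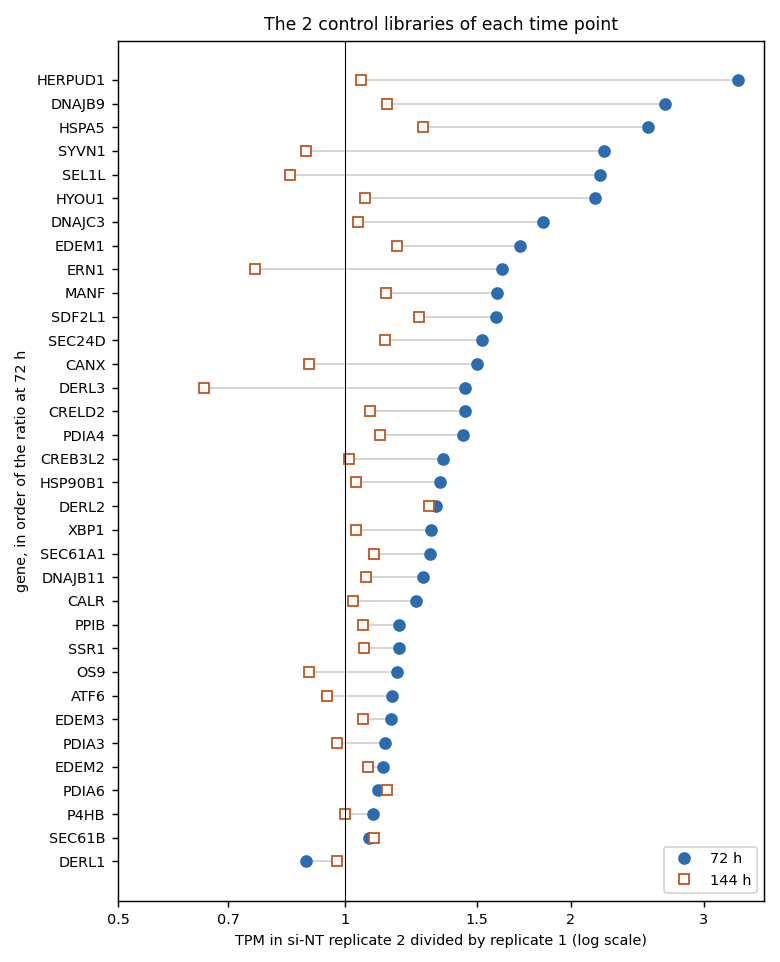
Ratio of TPM in si-NT replicate 2 to si-NT replicate 1 (horizontal axis, log scale) for each of the 34 genes (vertical axis, ordered by the ratio at 72 h), with filled circles for 72 h and open squares for 144 h. At 72 h the ratio reached 3.33 for HERPUD1 and was above 1 for every gene except DERL1, whereas at 144 h no gene reached 1.5. The ratios are of plain TPM, on which SEC24D at 1.53 passes 1.5 although it does not on the log2(TPM + 1) scale.

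Because this library was 1 of only 2 controls at 72 h, the fold changes of the called genes, the signs and the medians at 72 h are given below also without that library. The fit takes 1 spread per gene over all 12 libraries, so genes set apart in this library also have wider intervals at 144 h. The SE was 0.361 for HERPUD1, 0.293 for DNAJB9 and 0.276 for HSPA5 at both time points. How the library came to differ was not tested.

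The comparison of BRG1 depleted with si-NT cells asked which genes of the ER changed when BRG1 was lost. Fold changes are differences of log2(TPM + 1), and a gene is called at a Benjamini-Hochberg adjusted p under 0.05 over the 16337 genes tested with limma. At 144 h XBP1 and the ERAD genes EDEM2, OS9 and DERL2 were higher in BRG1 depleted cells, by 1.33 to 1.75 times in mean TPM, while the chaperone HSP90B1 fell by 22.4%. At 72 h HSP90B1 fell by 35.7% and MANF fell by 45.4%. No other member was called, and no member changed by more than 1.5 on the log2 scale, the limit of fold change that the study used.

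Thus 2 of the 34 genes were called lower at 72 h, against 0.557% of all genes tested, and 0 of 34 were called higher, against 1.13%. Of the 34, 12 had an unadjusted p under 0.05 at 72 h, beside 2339 of the 16337 genes tested, and without si-NT replicate 2 at that time 2 had, beside 1978. At 144 h 1 of 34 was called lower, against 10.8% of all genes, and 4 of 34 were called higher, against 13.6%, so that both counts at 144 h stood at or below the background. The median log2 fold change of the 34 was -0.228 at 72 h and 0.035 at 144 h, beside medians over all genes of 0.055 and 0.026. Without si-NT replicate 2 at 72 h the median of the 34 became 0.017, beside 0.063 over all genes. Without si-NT replicate 1 at that time the median of the 34 was -0.436. The choice of control library therefore set the sign of the group's median at 72 h.

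When scored by overlap alone, all 4 BRG1 depleted libraries lay below both si-NT libraries for 6 of the 34 genes at 72 h (6.93% of all genes) and above both for 1 (16.3% of all genes). With replicate 1 as the only control at 72 h they lay below it for 6 of the 34 (19.6% of all genes) and above it for 6 (32.1% of all genes). At 144 h they lay below for 8 (22.5% of all genes) and above for 8 (26.1% of all genes), close to the background in both directions.

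**Figure D2:**
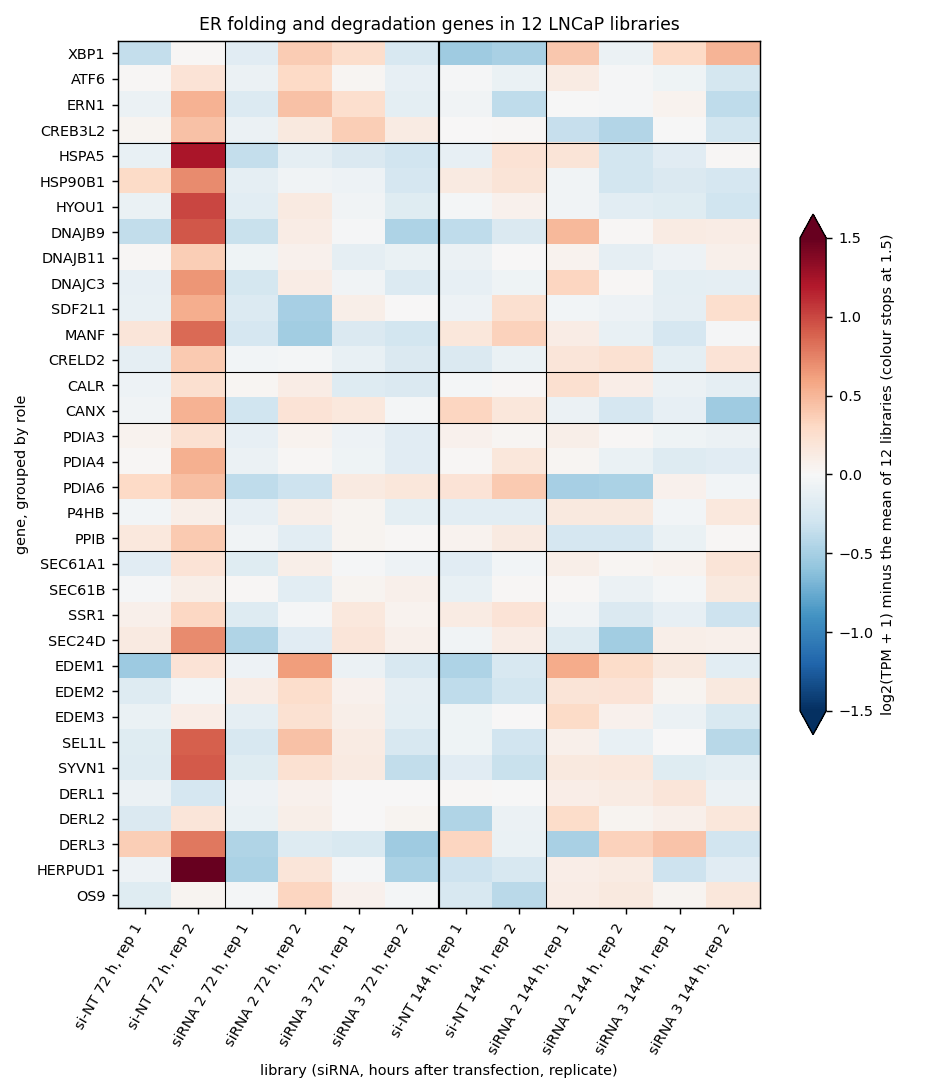
Difference of log2(TPM + 1) from the mean of the 12 libraries (colour, red above and blue below, saturating at 1.5) for the 34 genes grouped by role (vertical axis) in each library (horizontal axis). The column of si-NT replicate 2 at 72 h is red for nearly every chaperone and for HERPUD1, SEL1L and SYVN1, and the row of XBP1 is blue in both si-NT libraries at 144 h.

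**Figure D3:**
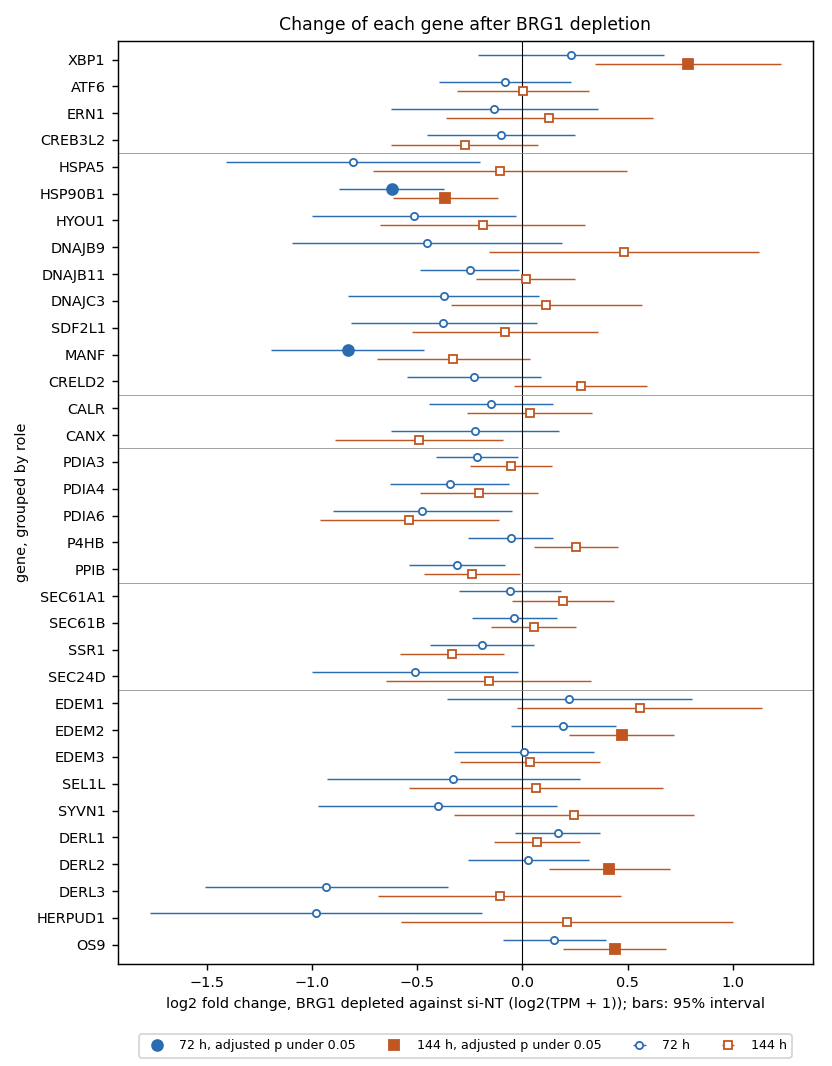
Log2 fold change of BRG1 depleted against si-NT cells (horizontal axis, difference of log2(TPM + 1), bars are 95% intervals) for the 34 genes grouped by role (vertical axis), with circles for 72 h and squares for 144 h, filled where the adjusted p was under 0.05. The filled symbols are HSP90B1 and MANF at 72 h and XBP1, HSP90B1, EDEM2, DERL2 and OS9 at 144 h.

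Among the sensors and transcription factors, XBP1 was the gene that changed. XBP1 (ENSG00000100219.12, chr22:29190543-29196585 of GRCh37, minus strand) encodes the transcription factor that drives much of the folding and ERAD programme, and its TPM counts spliced and unspliced mRNA together. At 144 h it was at 115 and 119 TPM in the si-NT libraries, at 222 and 156 TPM with siRNA 2 and at 206 and 237 TPM with siRNA 3. All 4 BRG1 depleted libraries were above both controls, which lay close together. The means were 117 ± 2.93 (SD, n = 2) and 205 ± 35.0 TPM (SD, n = 4), a ratio of 1.75. XBP1 rose by 0.789 on the log2 scale (SE 0.202, 95% interval 0.346 to 1.23, adjusted p = 0.0162 by limma). The fold change lay between 0.714 and 0.913 with any 1 library left out, but without either si-NT library at 144 h the adjusted p was 0.0997 or 0.1. At 72 h XBP1 was at 129 and 168 TPM in si-NT cells and at 148, 217, 201 and 141 TPM in BRG1 depleted cells, and these groups overlapped (log2 fold change 0.233, 95% interval -0.21 to 0.675, adjusted p = 0.666 by limma).

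ATF6, the sensor that is itself a transcription factor, was at 8.81 and 10.2 TPM in si-NT cells at 72 h and at 8.15, 10.9, 8.91 and 7.88 TPM in BRG1 depleted cells. The levels at 144 h were 8.54 and 8.08 TPM against 9.52, 8.58, 8.29 and 7.08 TPM. The groups overlapped at both time points (log2 fold changes -0.082 and 0.003). At 144 h the 95% interval for ATF6 was -0.31 to 0.316.

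ERN1, the sensor IRE1 that splices XBP1, was at 5.65 and 9.16 TPM in si-NT cells and at 5.13, 8.54, 7.43 and 5.39 TPM in BRG1 depleted cells at 72 h. ERN1 at 144 h was at 5.82 and 4.43 TPM against 6.03, 5.98, 6.35 and 4.42 TPM. These groups also overlapped, with log2 fold changes of -0.134 and 0.128 (SE 0.224 for each).

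CREB3L2, an ER-bound factor of the CREB3 family that is released in the way of ATF6, was at 9.42 and 12.7 TPM in si-NT cells and at 8.54, 10.2, 12.1 and 10.0 TPM in BRG1 depleted cells at 72 h. CREB3L2 at 144 h was at 9.15 and 9.28 TPM against 6.99, 6.49, 9.11 and 7.4 TPM. The BRG1 depleted libraries then lay below both controls, 1 of them by less than the controls differed from each other, and CREB3L2 was not called (log2 fold change -0.275, SE 0.16, adjusted p = 0.241 by limma).

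At 72 h the log2 fold changes of the 9 chaperones and cochaperones were all negative, with a median of -0.455. Without si-NT replicate 2 at 72 h 5 of the 9 were negative and 4 positive, among the latter HYOU1 at 0.032 and DNAJB9 at 0.199, and the median was -0.049. At 144 h 5 were negative and 4 positive, with a median of -0.083. Summed over the 9, si-NT libraries at 72 h held 1068 and 1798 TPM and BRG1 depleted libraries 845 to 931 TPM. The sums at 144 h were 1014 and 1127 TPM against 864 to 1031 TPM.

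HSP90B1 (ENSG00000166598.8, chr12:104323885-104347709 of GRCh37, plus strand), which encodes the ER form of HSP90 called GRP94, was the one gene called at both time points. At 72 h it was at 504 and 675 TPM in si-NT cells, at 377 and 400.2 TPM with siRNA 2 and at 392 and 347 TPM with siRNA 3. HSP90B1 at 144 h was at 456 and 472 TPM against 397 and 341 TPM with siRNA 2 and 355 and 347 TPM with siRNA 3. The groups did not overlap at either time point. HSP90B1 fell by 0.622 at 72 h (SE 0.114, adjusted p = 0.0261 by limma) and by 0.367 at 144 h (SE 0.114, adjusted p = 0.0364 by limma). Without si-NT replicate 2 at 72 h the difference at that time was -0.411 with an adjusted p of 0.187. At 144 h the sign was the same in every alternative, and the adjusted p ranged from 0.00197 to 0.21.

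MANF (ENSG00000145050.11, chr3:51422722-51426828 of GRCh37, plus strand), a small secreted protein that is induced by ER stress and protects cells from it, was at 111 and 178 TPM in si-NT cells at 72 h. BRG1 depleted cells were at 82.3 and 68.3 TPM with siRNA 2 and at 84.2 and 80.7 TPM with siRNA 3, below both controls. MANF fell by 0.832 (SE 0.166, adjusted p = 0.0335 by limma), and by 0.498 without si-NT replicate 2, with an adjusted p of 0.24. The call at 72 h was kept in 13 of the 23 alternatives, against 18 of 23 for HSP90B1. MANF at 144 h was at 111 and 126 TPM against 106, 90.8, 82.3 and 97.1 TPM. Again no library of one group reached the other, but MANF was not called there (log2 fold change -0.329, 95% interval -0.693 to 0.035, adjusted p = 0.177 by limma).

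HSPA5, the gene of the central ER chaperone BiP, also depended on the single control library. At 72 h it was at 216 and 547 TPM in si-NT cells and at 182, 212, 201 and 191 TPM in BRG1 depleted cells. The lower of the 2 controls lay just above the BRG1 depleted libraries, while the other was far above all of them. The log2 fold change was -0.806 (SE 0.276, adjusted p = 0.19 by limma), -0.137 without si-NT replicate 2 and -1.47 without replicate 1. At 144 h HSPA5 was at 214 and 272 TPM against 267, 193, 207 and 236 TPM, and the groups overlapped (log2 fold change -0.107, 95% interval -0.71 to 0.496).

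HYOU1, a large relative of HSP70 that exchanges nucleotide on BiP, was at 72.7 and 157 TPM in si-NT cells and at 68.2 to 85.6 TPM in BRG1 depleted cells at 72 h. HYOU1 at 144 h was at 76.4 and 81.2 TPM against 63.2 to 75.1 TPM (log2 fold change -0.189, adjusted p = 0.582 by limma). DNAJB9 was at 7.70 and 20.5 TPM against 7.17 to 11.2 TPM at 72 h. At 144 h DNAJB9 was at 7.64 and 8.71 TPM in si-NT cells and at 10.4 to 14.8 TPM in BRG1 depleted cells, so that all 4 lay above both controls, but it was not called (log2 fold change 0.482, SE 0.293, adjusted p = 0.262 by limma). That SE takes in the spread of the si-NT libraries at 72 h. The remaining chaperones were the BiP cochaperones DNAJB11, DNAJC3 and SDF2L1 and the stress-induced ER protein CRELD2. None of these 4 was called at either time or in any alternative, and at 144 h none separated the groups. CRELD2 at 144 h was at 33.2 and 35.8 TPM in si-NT cells and at 43.8, 45.5, 34.9 and 44.6 TPM in BRG1 depleted cells.

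**Figure D4:**
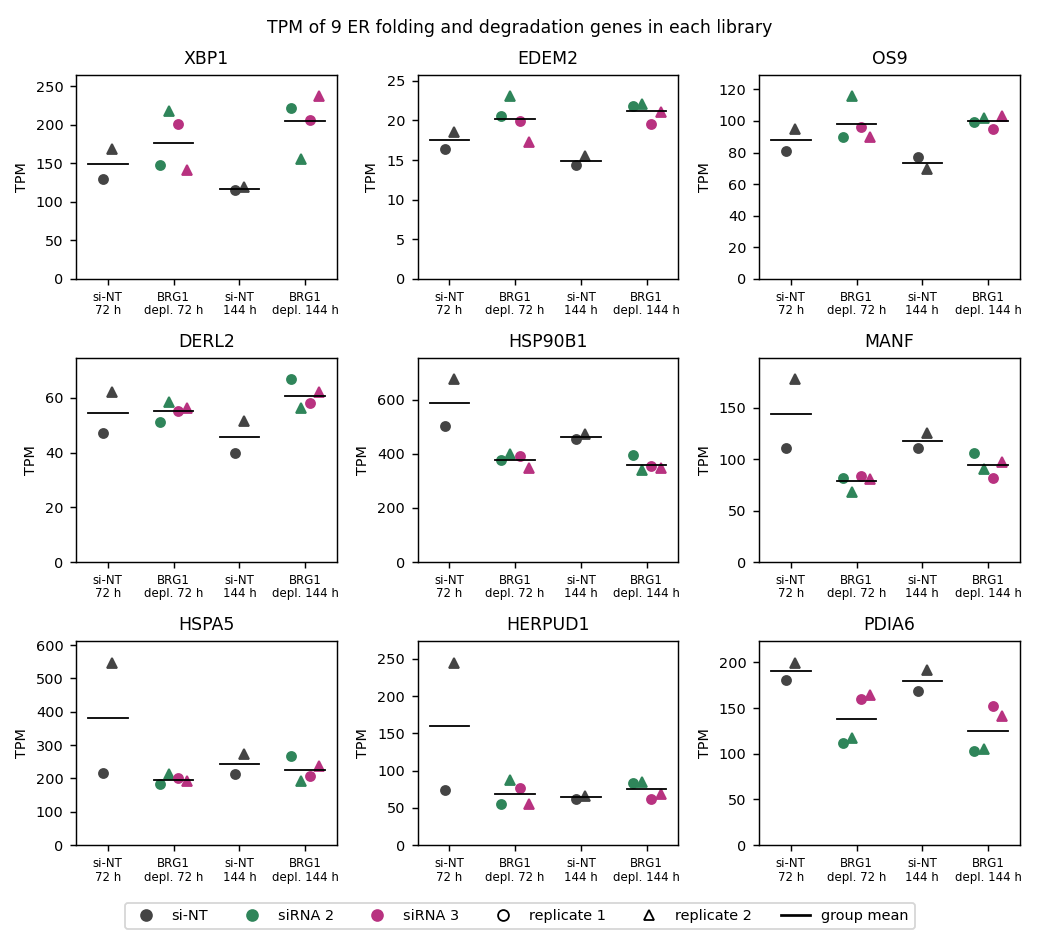
TPM (vertical axes, from 0) of 9 genes in each library of the 4 groups (horizontal axes), with colours for the siRNA, symbol shapes for the replicate number and lines for group means. The si-NT replicate 2 at 72 h stands above every other library for HSP90B1, MANF, HSPA5 and HERPUD1, XBP1 at 144 h is at 115 and 119 TPM in si-NT against 156 to 237 TPM, and PDIA6 lies lower with siRNA 2 than with siRNA 3 at both time points.

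The lectin chaperones hold glycoproteins during folding. CALR, the soluble calreticulin, was the most abundant of the 34 genes at 144 h in si-NT cells, with 786 and 806 TPM, and at 144 h BRG1 depleted cells held 947 and 856 TPM with siRNA 2 and 749 and 725 TPM with siRNA 3. At 72 h CALR was at 759 and 946 TPM against 814, 862, 700.3 and 689 TPM. The groups overlapped at both times, with log2 fold changes of -0.152 and 0.034 (SE 0.135 for each).

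CANX, the membrane-bound calnexin, was at 172 and 258 TPM against 146, 207, 199 and 175 TPM at 72 h. CANX at 144 h was at 224 and 201 TPM in si-NT cells, at 169 and 150.0 TPM with siRNA 2 and at 165 and 124 TPM with siRNA 3. All 4 libraries were below both controls at 144 h, and CANX missed the threshold (log2 fold change -0.492, SE 0.183, 95% interval -0.892 to -0.091, adjusted p = 0.0713 by limma).

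None of the 5 isomerases, which form and rearrange disulphide bonds or prolyl bonds, was called at either time by limma, with 4 and 3 of them at an unadjusted p under 0.05 at 72 h and 144 h, beside 2339 and 6013 of all 16337 genes. Without si-NT replicate 2, 0 of the 5 had such a p at 72 h. The log2 fold change at 72 h was negative for all 5 (median -0.312), or for 4 (median -0.127) without that library, and at 144 h for 4 of 5 (median -0.206). PPIB, the prolyl isomerase cyclophilin B, was at 668 and 789.9 TPM against 537 to 619 TPM at 72 h and at 622 and 657 TPM against 502 to 607 TPM at 144 h. The groups of PPIB did not overlap at either time (log2 fold changes -0.312 and -0.241, adjusted p = 0.18 and 0.116 by limma). P4HB, the founding disulphide isomerase, was at 406.5 and 406.9 TPM in si-NT cells at 144 h and at 439.6 to 506 TPM in BRG1 depleted cells, a log2 fold change of 0.255 with an adjusted p of 0.0645 by limma. PDIA3 and PDIA4 overlapped between the groups at both times.

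PDIA6, a disulphide isomerase that binds BiP, was the member in which the 2 siRNAs lay furthest apart. At 72 h it was at 180.3 and 199.8 TPM in si-NT cells, at 112 and 117 TPM with siRNA 2 and at 159.9 and 164 TPM with siRNA 3. PDIA6 at 144 h was at 168 and 192 TPM, at 103 and 105 TPM with siRNA 2 and at 152 and 142 TPM with siRNA 3. All BRG1 depleted libraries were below the controls, and those with siRNA 2 were below those with siRNA 3. Against si-NT, siRNA 2 gave a log2 fold change of -0.724 at 72 h (adjusted p = 0.0089 by limma) and -0.787 at 144 h (adjusted p = 0.000968 by limma), in a fit with the siRNAs as separate groups. For siRNA 3, set against the same si-NT libraries, the values were -0.228 (adjusted p = 0.335 by limma) and -0.29 (adjusted p = 0.0545 by limma). With both siRNAs as 1 group PDIA6 was not called, at -0.476 (adjusted p = 0.282) and -0.539 (adjusted p = 0.0655 by limma).

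The siRNAs were also compared directly, siRNA 3 minus siRNA 2. By limma 0 of the 34 genes were called at 72 h, where 3 had an unadjusted p under 0.05, beside 1361 of all 16337 genes. At 144 h 0 were called and 2 had such a p, beside 2175 of all 16337 genes. Over all genes tested 0.141% and 0.331% were called. For PDIA6 the difference was 0.496 at 72 h (SE 0.093, adjusted p = 0.112 by limma) and 0.497 at 144 h (SE 0.093, adjusted p = 0.079 by limma). CALR was lower with siRNA 3 in all 4 pairs of libraries at each time. Its differences were -0.27 at 72 h (SE 0.108, adjusted p = 0.552 by limma) and -0.289 at 144 h (SE 0.108, adjusted p = 0.307 by limma). SEC24D differed by 0.446 at 72 h (SE 0.196, adjusted p = 0.598 by limma) and by 0.437 at 144 h (SE 0.196, adjusted p = 0.381 by limma). For XBP1 the difference was -0.091 at 72 h (SE 0.241, adjusted p = 0.958 by limma) and 0.246 at 144 h (SE 0.241, adjusted p = 0.694 by limma). XBP1 at 144 h stood at 0.666 above si-NT with siRNA 2 (adjusted p = 0.0786 by limma) and at 0.911 with siRNA 3 (adjusted p = 0.028 by limma).

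The 4 genes of the translocon and of export comprised SEC61A1 and SEC61B of the protein channel, SSR1 of the translocon-associated TRAP complex, and SEC24D, which selects cargo for COPII vesicles. None was called at either time by limma, with 1 at an unadjusted p under 0.05 at each time (0 at 72 h without si-NT replicate 2). SSR1 was at 94.9 and 100.5 TPM in si-NT cells at 144 h and at 84.3, 74.8, 79.9 and 70.3 TPM in BRG1 depleted cells, below both controls in all 4, and just missed the threshold (log2 fold change -0.336, SE 0.114, adjusted p = 0.0508 by limma). It stayed uncalled in 13 of the 23 alternatives run, and its fold change at 144 h lay between -0.735 and -0.292. SEC61A1 was at 177 and 193 TPM against 202 to 227 TPM at 144 h, above both controls in all 4 (log2 fold change 0.193, SE 0.111, adjusted p = 0.233 by limma). SEC61B and SEC24D overlapped at both times.

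The 10 ERAD genes held 3 of the 4 calls for higher expression at 144 h, when 13.6% of all genes were called higher. Of the 10, 9 had a positive log2 fold change at 144 h (median 0.229), beside 8596 of all 16337 genes (median 0.026). At 72 h 6 of the 10 were positive (median 0.018), beside 9854 of all genes (median 0.055), and 8 of the 10 were positive without si-NT replicate 2 (median 0.181). With ERCC scaling, described further on, 4 of the 10 were positive at 144 h, beside 3827 of all 16337 genes. Their summed level at 144 h was 313 and 318 TPM in si-NT cells and 370.3 to 427 TPM in BRG1 depleted cells.

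EDEM2 (ENSG00000088298.8, chr20:33703167-33735139 of GRCh37, minus strand) starts the trimming of mannose that marks misfolded glycoproteins for degradation. At 144 h it was at 14.4 and 15.5 TPM in si-NT cells, at 21.8 and 22.0 TPM with siRNA 2 and at 19.6 and 21.1 TPM with siRNA 3. All 4 libraries were above both controls by more than the spread within either group. EDEM2 rose by 0.473 (SE 0.114, 95% interval 0.223 to 0.722, adjusted p = 0.0121 by limma). At 72 h it was at 16.4 and 18.5 TPM against 20.6, 23.0, 19.9 and 17.2 TPM, and the groups overlapped (log2 fold change 0.194, adjusted p = 0.484 by limma).

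OS9 (ENSG00000135506.11, chr12:58087624-58122125 of GRCh37, plus strand) is the lectin that brings such trimmed glycoproteins to the ligase complex. At 144 h it was at 77.5 and 69.5 TPM in si-NT cells, at 99.5 and 102 TPM with siRNA 2 and at 94.7 and 103 TPM with siRNA 3, so that the groups were well separated. OS9 rose by 0.439 (SE 0.112, 95% interval 0.193 to 0.685, adjusted p = 0.016 by limma). At 72 h OS9 was at 80.8 and 94.8 TPM against 89.9, 115.5, 95.9 and 90.1 TPM, which overlapped (log2 fold change 0.152, adjusted p = 0.596 by limma).

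DERL2 (ENSG00000072849.6, chr17:5374574-5390131 of GRCh37, minus strand) is a derlin, a membrane protein of the channel through which ERAD substrates leave the ER. At 144 h it was at 39.8 and 51.6 TPM in si-NT cells, at 66.7 and 56.4 TPM with siRNA 2 and at 58.0 and 62.0 TPM with siRNA 3. The groups did not overlap, although the 2 controls lay further apart than those of EDEM2 or OS9. DERL2 rose by 0.412 (SE 0.131, 95% interval 0.125 to 0.7, adjusted p = 0.0402 by limma), and the difference was 0.230 without si-NT replicate 1 at 144 h (adjusted p = 0.376). The call was kept in 10 of the 23 alternatives run, against 20 of 23 for each of XBP1, EDEM2 and OS9 and 14 of 23 for HSP90B1 at 144 h. At 72 h it was at 47.0 and 62.2 TPM against 51.0, 58.5, 55.0 and 56.4 TPM (log2 fold change 0.028, which became -0.165 with ERCC scaling and -0.043 with median-of-ratios size factors).

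For EDEM2, OS9 and XBP1, leaving out either si-NT library at 144 h took the adjusted p to 0.0514 or higher.

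EDEM1, which acts on mannose after EDEM2, was at 21.8 and 25.5 TPM in si-NT cells at 144 h and at 45.2, 37.0, 33.6 and 27.2 TPM in BRG1 depleted cells. All 4 lay above both controls with a wide spread, and EDEM1 was not called (log2 fold change 0.558, SE 0.267, adjusted p = 0.154 by limma). HERPUD1 at 72 h was at 73.6 and 245 TPM in si-NT cells and at 55.6, 88.1, 76.3 and 55.6 TPM in BRG1 depleted cells (log2 fold change -0.983, SE 0.361, and -0.122 without si-NT replicate 2). At 144 h HERPUD1 was at 62.4 and 65.7 TPM against 83.4, 84.6, 62.5 and 69.1 TPM, and the groups overlapped (log2 fold change 0.212, 95% interval -0.579 to 1.00).

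DERL3, the derlin of secretory cells, was the member with the lowest level. At 72 h it was at 2.91 and 4.21 TPM in si-NT cells, at 1.21 and 1.63 TPM with siRNA 2 and at 1.57 and 1.09 TPM with siRNA 3. All 4 libraries were below both controls, also below replicate 1 alone, but DERL3 was not called (log2 fold change -0.933, SE 0.264, adjusted p = 0.122 by limma). The difference was -0.726 without si-NT replicate 2. At 144 h DERL3 was at 2.78 and 1.81 TPM against 1.16, 2.84, 3.07 and 1.48 TPM, and the groups overlapped. The other 4 ERAD genes, EDEM3, SEL1L, SYVN1 and DERL1, were called at neither time and in no alternative. Their groups overlapped at both times, except that DERL1 at 72 h was at 35.0 and 31.2 TPM against 35.2 to 38.9 TPM.

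The time points were compared in 2 ways. The change after BRG1 depletion at 144 h minus that at 72 h was called by limma for 0 of the 34 genes and for 0.0184% of all genes. An unadjusted p under 0.05 was found for 5 of the 34, beside 1943 of all 16337 genes. These 5 were CRELD2 (difference 0.508), P4HB (0.311), HERPUD1 (1.195), DNAJB9 (0.937) and DERL3 (0.826), with adjusted p-values of 0.376 to 0.418 by limma. For XBP1 the difference was 0.556 (95% interval -0.069 to 1.18), so that its rise at 144 h was not shown to differ from its value at 72 h. In si-NT cells alone, 144 h minus 72 h, limma called 0 of the 34 genes and 0% of all genes, with 2 members (HERPUD1 and HSP90B1) and 671 genes in all at an unadjusted p under 0.05. The log2 difference in si-NT cells was negative for 32 of the 34 genes, with a median of -0.229 beside a median over all genes of 0. Both comparisons rest on the si-NT libraries at 72 h, replicate 2 among them.

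TPM gives shares of a library and not amounts per cell. The ERCC spike-ins, RNA added in equal amount to each sample of total RNA, made up 1.04% to 1.97% of the TPM total in BRG1 depleted cells at 144 h and 0.805% to 1.34% in the si-NT cells. When the libraries were scaled to the spike-ins, the median of all genes became -0.114 at 72 h and -0.313 at 144 h on the log2 scale. By limma 0 of the 34 genes were then called at either time, beside 32 of all 16337 genes at 72 h and 752 at 144 h. At 144 h with this scaling XBP1 was at 0.387 (adjusted p = 0.428 by limma), which is 0.70 above the median of all genes. EDEM2 was 0.403, OS9 0.352 and DERL2 0.329 above that median, and HSP90B1 was at -0.458 relative to it. Scaling to the spike-ins moves nearly all genes of a library by the same amount, so a position relative to the median hardly changes. These positions therefore do not test whether the calls hold. Among members not called, 14 turned from positive to negative at 144 h, namely ATF6, ERN1, DNAJB11, DNAJC3, CRELD2, CALR, P4HB, SEC61A1, SEC61B, EDEM3, SEL1L, SYVN1, DERL1 and HERPUD1. At 72 h 4 did, namely EDEM3, DERL1, DERL2 and OS9.

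Other genes of the same pathway were examined as lists, and are given as counts called lower and higher at 144 h beside the 10.8% and 13.6% of all genes. With ERCC scaling only QSOX1 and SEC11C of all the listed genes were called at 144 h by limma, so that the other calls below hold for TPM as deposited. With that scaling 752 of all 16337 genes were called at 144 h. Of 17 genes of COPII coats and ER exit, 0 were called lower and 8 higher. SEC24C, which like SEC24D selects cargo, rose by 0.809 (adjusted p = 0.000563 by limma), and was at 0.411 with ERCC scaling (adjusted p = 0.392). KDELR1 and KDELR3, receptors that return escaped ER chaperones from the Golgi, rose by 0.795 and 0.603. Of 20 genes of the folding cycle and redox, 2 were called lower and 6 higher, among them the sulphydryl oxidase QSOX1 (1.40), the isomerase PDIA5 (0.629) and the peroxiredoxin PRDX4, which fell by 0.604. Of 21 further ERAD genes, 0 were called lower and 4 higher. The trimming mannosidase MAN1B1 rose by 0.717, the ligase MARCHF6 by 0.518 and the lectin ERLEC1, a relative of OS9, by 0.504.

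Of 25 genes of translocation, signal peptide removal and N-glycan transfer, 3 were called lower and 2 higher. The signal peptidase subunit SEC11C rose by 1.84 (adjusted p = 2.6e-05 by limma), while its paralogue SEC11A fell by 0.412 and OSTC, a subunit of the oligosaccharyltransferase, fell by 0.547. Of the 10 PERK arm genes, 2 were called lower and 1 higher. ATF4, the transcription factor of this arm, fell by 0.641, EIF2S1, the initiation factor that PERK phosphorylates, fell by 0.347, and NFE2L2 rose by 0.250, a value that became -0.146 with ERCC scaling. Of 9 kin of the sensors, ERN2, CREB3L1 and CREB3L3 did not pass the filter on low values, and of the other 6, 0 were called lower and 1 higher, CREB3 (0.482). Over all 99 listed genes tested, 7 were called lower and 22 higher at 144 h. At 72 h 0 were called lower and 1 higher, SEC11C (0.704, adjusted p = 0.0335 by limma), beside 0.557% and 1.13% of all genes. Without si-NT replicate 2 at that time the value of SEC11C, the highest of its list, was 0.511. The median log2 fold change of the 99 at 72 h was 0.028, and 0.047 without si-NT replicate 2 at that time. The PERK arm differed from the other lists, with a median of -0.636 and 9 of 10 genes negative at 72 h. Without si-NT replicate 2 its median was -0.312, with 8 of 10 negative. The medians of the other lists at 72 h lay between -0.039 and 0.153, and 6483 of all 16337 genes were negative.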

How the data were processed

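LNCaP libraries (12) were made by the authors from TRIzol-extracted total RNA with ERCC spike-ins and a stranded mRNA kit. As the methods and labels state, reads were trimmed with Trim Galore, aligned to hg19 (GRCh37) with STAR 2.4.0j and counted with featureCounts, and TPM was determined on GENCODE genes. The deposited values are TPM with 2 decimals. Each library sums to between 999999 and 1000001 with spike-ins, so the ERCC normalisation described for counts is not kept, and TPM keeps no depth. The tool that made TPM is not given in the sources used here. The table held 0 columns that matched no sample.

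Values were transformed as log2(TPM + 1), the pseudocount being 1. Genes that reached 1 TPM in 2 or more libraries, 16337 in all, entered limma 3.58.1 (eBayes with a trend, prior degrees of freedom 3.53, R 4.3.3) with 4 groups, si-NT or BRG1 depleted by time. The siRNAs were compared in a fit of 6 groups. P-values were adjusted by Benjamini-Hochberg over all genes tested. The procedure was tested on simulated data. Python 3.11.15, pandas 2.3.3, NumPy 2.4.6 and matplotlib 3.10.9 were used.

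The members, gene lists, tests and alternatives were chosen with earlier results of these data known. Values in every library are given for XBP1, ATF6, ERN1, CREB3L2, HSPA5, HSP90B1, CALR, CANX, DERL3 and every further member called, and from each other list the 3 called genes with the largest absolute change at 144 h. Other members given with values (those called under at least 1 alternative, CRELD2, DERL1, SEC24D and those named for the si-NT pair) were chosen after values were seen, as was the combination of 3 si-NT libraries. Coordinates and symbols come from the GRCh37 lift of GENCODE release 44, a later release than that of the authors, and promoters from RefSeq on GRCh38.p14. Protein sequences were not used here. The alternatives were a pseudocount of 0.1, no filter, a mean TPM of at least 5, ERCC scaling, median-of-ratios size factors, a block for the replicate number, no trend in eBayes, a fit to the 6 libraries of 1 time point, 6 groups, all si-NT libraries as 1 group and each library left out in turn. Same-numbered libraries did not deviate together (15 correlations of deviations from group means, -0.229 to 0.3, 2 over 0.1), so the numbers were not taken to pair the libraries.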

Additional observations from a re-analysis of the deposited data

Results flagged for a closer look

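Within the groups of 4 BRG1 depleted libraries, 1 library lay far from the other 3 in 3 of 68 groups examined, where chance gives about 1 in 20. CRELD2 was at 34.93 TPM in siRNA 3 replicate 1 at 144 h, against 43.77 to 45.54 TPM in the other 3 libraries. P4HB was at 439.65 TPM in the same library, against 499.51 to 505.76 TPM. EDEM1 was at 47.37 TPM in siRNA 2 replicate 2 at 72 h, against 25.47 to 28.77 TPM. Groups of 2 si-NT libraries could not be examined in this way.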

How the results depend on the processing

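The count of members called lower at 72 h was 2, and was 1 with no filter, 0 with ERCC scaling, 0 with only the 6 libraries of the time point, and 0 to 5 with 1 library left out. The count called higher at 72 h was 0, and 2 (EDEM2 and OS9) with the 3 si-NT libraries other than replicate 2 at 72 h combined, an alternative chosen after seeing the data. The count called lower at 144 h was 1, and was 0 with no filter, 2 with a mean TPM of at least 5, 0 with ERCC scaling, 3 with median-of-ratios size factors, 0 with eBayes without a trend, 3 with only the 6 libraries, 3 with 6 groups, 7 with si-NT of both time points combined, 5 with the 3 si-NT libraries and 0 to 3 with 1 library left out. The count called higher at 144 h was 4, and was 0 with ERCC scaling, 7 with the 3 si-NT libraries and 0 to 5 with 1 library left out, 0 being without si-NT replicate 1 at 144 h. With median-of-ratios size factors 1 member differed between the siRNAs at 144 h. With the replicate number as a block 0 members were called lower at 144 h, and the pairing by number is not shown by these data. The median of the members at 72 h was -0.422 with ERCC scaling, 0.018 with the 3 si-NT libraries and -0.436 to 0.017 with 1 library left out, and at 144 h it was -0.353 with ERCC scaling, -0.095 with si-NT combined and -0.003 to 0.081 with 1 library left out. The cause of these shifts was not tested. With ERCC scaling 32 of all 16337 genes were called at 72 h and 752 at 144 h. For the other alternatives the share of all genes called is not given here, so those counts of members stand without a background.

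Of the genes called, NFE2L2 at 144 h turned to -0.146 with ERCC scaling, and the sign of XBP1, EDEM2, OS9, DERL2 and HSP90B1 at 144 h and of HSP90B1 and MANF at 72 h was the same under every alternative run. Among the uncalled members with a fold change given by the naming rule or called under an alternative, the sign changed as follows. At 72 h this was so for ATF6 (0.003), ERN1 (0.083), CREB3L2 (0.012), P4HB (0.032) and SEC61A1 (0.001) with all si-NT libraries as 1 group. With the 3 si-NT libraries it was so for ATF6 (0.063), ERN1 (0.257), CREB3L2 (0.116), DNAJB9 (0.15), P4HB (0.082), SEC61A1 (0.083) and HERPUD1 (0.011). With ERCC scaling the values became -0.165 for DERL2 and -0.042 for OS9, and with median-of-ratios size factors -0.043 for DERL2. In all, 4 members turned with ERCC scaling at 72 h and 14 at 144 h. At 144 h the values with ERCC scaling were -0.355 for ATF6, -0.213 for ERN1, -0.37 for CALR, -0.148 for P4HB, -0.209 for SEC61A1 and -0.186 for HERPUD1. ATF6 was at -0.026 with median-of-ratios size factors and at -0.022 with the 3 si-NT libraries. With all si-NT libraries as 1 group the values were -0.082 for ATF6, -0.089 for ERN1, -0.012 for CALR and -0.318 for HERPUD1. With 1 library left out, both signs occurred at 72 h for ATF6 (-0.176 to 0.013), ERN1 (-0.44 to 0.172), CREB3L2 (-0.3 to 0.097), HYOU1 (-1.064 to 0.032), DNAJB9 (-1.109 to 0.199), CALR (-0.31 to 0.006), CANX (-0.516 to 0.064), P4HB (-0.118 to 0.006), SEC61A1 (-0.247 to 0.13), EDEM1 (-0.15 to 0.597) and DERL2 (-0.17 to 0.226). At 144 h they occurred for ATF6 (-0.055 to 0.072), ERN1 (-0.037 to 0.292), HSPA5 (-0.28 to 0.066), CALR (-0.039 to 0.09) and DERL3 (-0.322 to 0.106). Where a si-NT library was left out, 1 control remained at its time point and was assumed to vary like the other groups. The depth of the libraries is unknown, so no limit from counting could be set.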
